A study of Mus musculus with 2 samples.

Results

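Secreted modulators of Wnt signalling were followed through the cells of the mouse heart after pressure overload. The 8 genes were taken from a list of names: the inhibitors Wif1, Sfrp1, Sfrp2, Frzb, Dkk2 and Dkk3 and the R-spondins Rspo1 and Rspo3, out of 56953 genes in the count matrix. The material was a suspension of heart cells without cardiomyocytes, pooled from 4 Nts KO and 3 control mice 7 days after TAC, an operation that narrows the aorta and loads the left ventricle. The mice were 6 to 8 weeks old, and every mouse had been operated on. In the labels the genotype of the pool is given as WT although KO mice are counted in it, and the feature list also contains a CreERT2 transgene whose promoter the labels do not name. The files used here hold no link between cells and mice, so KO and control hearts were not compared, and each value is an average over the pool.

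The single gene expression library held 69993559 UMIs (molecular barcodes that count captured transcripts once) in 9369 cell barcodes, whose totals ran from 2567 to 42567 around a median of 6663. After 357 called doublets were removed, 9012 cells remained. The suspension had been sorted for live cells, and cell types were then assigned by gates on raw UMIs. Of the 9012 cells, 6739 passed 1 gate, 10 passed several and 2263 passed none. The fibroblast gate held 3802 cells, the myeloid gate 1940, the lymphocyte gate 478, the mural gate (pericytes and smooth muscle) 68 and the mesothelial gate 17. Endothelial cells were split into 97 with an Npr3 UMI, 91 with a Prox1 UMI (called lymphatic) and 246 other blood endothelial cells. Median depth ran from 3476 UMIs in lymphocytes to 7812 in fibroblasts.

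The gates were set against marker lists. All 10 fibroblast markers reached 50 CPM (UMIs of a gene per 1000000 UMIs of the gated cells) in the fibroblast gate, and the 5 that did not set the gate summed to 31291 CPM. In the mesothelial gate 6 of the 7 mesothelial markers other than the gate genes Msln and Upk3b did so, and the same 5 fibroblast markers summed to 5062 CPM. The Npr3 endothelium had 4 of the 6 endocardial markers other than its gate gene Npr3 at this level, as had other blood endothelium, with sums of 4368 CPM in Npr3 endothelium and 1122 CPM in other blood endothelium. It also carried 4 of 5 capillary markers at a summed 3001 CPM, below the 27306 CPM of other blood endothelium and near the 2464 CPM of the lymphatic gate. It is called Npr3 endothelium, by its gate. Lymphatic is also only a gate name, set by a Prox1 UMI with or without Npr3, and no other lymphatic marker was checked. In that gate 6 of 7 endocardial markers reached 50 CPM, Npr3 among them. Pdgfra was required in the fibroblast gate and barred or absent in the endothelial, myeloid, lymphocyte and mural gates, yet these gates summed 590.1 to 6661 CPM over the 5 fibroblast markers outside the gate rule, the most in the mural gate.

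Wnt proteins bind Frizzled receptors together with LRP co-receptors, which stabilises beta-catenin in the receiving cell. Wif1 and the secreted Frizzled-related proteins Sfrp1, Sfrp2 and Frzb (also known as Sfrp3) bind Wnt proteins outside the cell. Dkk2 binds the LRP co-receptors, while Dkk3 is a divergent relative that is not a typical Wnt antagonist. Rspo1 and Rspo3 bind Lgr receptors and the ligases Rnf43 and Znrf3, which lowers the removal of Frizzled from the surface and so strengthens a Wnt signal.

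The 8 genes lie on 6 chromosomes. On GRCm38, Wif1 spans chr10:121033960-121100650 on the plus strand and Rspo3 chr10:29452416-29535867 on the minus strand. Sfrp2 spans chr3:83766321-83774316 and Dkk2 chr3:132085292-132180304, both on the plus strand. Sfrp1 lies at chr8:23411502-23449632 and Rspo1 at chr4:124986430-125009099 on the plus strand, and Frzb at chr2:80411970-80447625 and Dkk3 at chr7:112116017-112159057 on the minus strand. All are protein-coding in GENCODE M21. Annotated antisense genes overlap Sfrp2, Rspo1 and Rspo3, and whether the counting used strand is not given in the sources used here.

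RefSeq promoters on GRCm38.p6, each from 250 bases before the gene's start to 50 bases after it, were found for 5 of the 8 genes. Those of 4 genes are shown because their genes had separate patterns in the cells below: Wif1 in a few stromal cells, Sfrp2 in fibroblast subsets, Rspo1 in mesothelial cells and Dkk2 in endothelium. Capitals mark a TATA motif (TATAAA) or a GC box (GGGCGG) on either strand. The windows are chr10:121033754-121034053 for Wif1, chr3:83766071-83766370 for Sfrp2, chr4:124986180-124986479 for Rspo1 and chr3:132085042-132085341 for Dkk2, all on the plus strand.
Wif1: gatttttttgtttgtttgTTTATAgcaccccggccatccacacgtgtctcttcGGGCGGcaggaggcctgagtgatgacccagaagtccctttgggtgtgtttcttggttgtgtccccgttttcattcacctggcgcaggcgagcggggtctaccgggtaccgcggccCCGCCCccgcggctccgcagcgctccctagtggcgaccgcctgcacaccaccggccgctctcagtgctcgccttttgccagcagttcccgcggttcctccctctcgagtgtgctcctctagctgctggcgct
Sfrp2: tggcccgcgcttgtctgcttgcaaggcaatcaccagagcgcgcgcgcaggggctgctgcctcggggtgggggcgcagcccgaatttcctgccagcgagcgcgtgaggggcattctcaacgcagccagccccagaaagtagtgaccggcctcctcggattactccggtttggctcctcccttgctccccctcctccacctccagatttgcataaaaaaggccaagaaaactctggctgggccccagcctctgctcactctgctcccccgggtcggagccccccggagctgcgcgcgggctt
Rspo1: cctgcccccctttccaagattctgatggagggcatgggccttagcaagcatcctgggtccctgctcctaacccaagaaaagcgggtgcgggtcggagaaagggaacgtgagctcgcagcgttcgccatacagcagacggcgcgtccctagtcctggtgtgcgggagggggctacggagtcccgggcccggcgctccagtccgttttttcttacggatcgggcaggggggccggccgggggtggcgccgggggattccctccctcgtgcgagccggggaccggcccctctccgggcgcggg
Dkk2: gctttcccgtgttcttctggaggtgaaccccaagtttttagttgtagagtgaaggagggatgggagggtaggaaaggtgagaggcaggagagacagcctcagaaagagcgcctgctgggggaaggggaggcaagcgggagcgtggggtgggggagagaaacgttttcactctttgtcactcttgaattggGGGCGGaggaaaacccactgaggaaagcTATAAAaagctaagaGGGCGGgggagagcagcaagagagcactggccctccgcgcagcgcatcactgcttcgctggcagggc
The Dkk2 window held TATAAA at position 219 of its 300 bases, 2 GC boxes and the lowest GC content of the 5, 57.7%. The Wif1 window held the TATA motif on the other strand at position 19 and 2 GC boxes, at 63.0% GC. The Sfrp2 and Rspo1 windows had neither motif, at 66.0% and 69.0% GC, and that of Frzb had 1 GC box at 64.7% GC. Over 32544 promoters of the same length, 13.6% held TATAAA, 35.9% held GGGCGG, and the median GC content was 53.0%. The beta-catenin partner motif of TCF/LEF factors (searched as CTTTGAA, then as CTTTGAT, then as CTTTGTA and last as CTTTGTT), the AP-1 motif TGANTCA and the TEAD motif GGAATG, each on both strands, were absent from all 5 windows. These were present in 16.9%, 7.79% and 14.6% of all promoters.

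Fibroblasts carried most transcripts of the Frizzled-related members. UMIs count transcript 3′ ends and are not scaled by gene length, so levels of different genes are given side by side without a ranking. Sfrp1 stood at 385 CPM in fibroblasts (95% interval 378 to 392), Sfrp2 at 177 CPM (173 to 182) and Frzb at 95.9 CPM (92.5 to 99.4). In the other lineages, summed, the same genes stood at 13.0, 5.86 and 2.99 CPM. Dkk3, the divergent Dickkopf relative, had 64.0 CPM in fibroblasts, against 6.67 CPM in other lineages. Wif1 had 16.7 CPM in fibroblasts against 2.47 CPM in other lineages, and Rspo3 had 4.22 against 1.61 CPM. The intervals cover counting error only: with a single pooled library the spread between mice is unknown, and no test across samples can be made.

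A gene was called different between a pair of cell groups when its CPM differed at least 2-fold, the interval of the ratio excluded 1 and the sums held at least 20 UMIs. In fibroblasts 6 of the 8 genes were called higher than in the other lineages and 1, Dkk2, lower, where 21.8% of all 17627 genes were called higher and 20.2% lower. The median log2 ratio of the 8 genes was 3.01, and that of all genes was 0.08. Frzb was 32.1-fold higher in fibroblasts (24.4 to 43.1), Sfrp2 30.2-fold (24.9 to 37.1) and Sfrp1 29.7-fold (26.0 to 34.0), and these 3 intervals overlap. Dkk3 was 9.59-fold higher (7.95 to 11.7), Wif1 6.76-fold (4.95 to 9.45) and Rspo3 2.62-fold (1.74 to 4.10). Rspo1 was not called, at 7.46 CPM in fibroblasts and 4.14 CPM in other lineages. The 17 mesothelial cells held 37 of the 72 Rspo1 UMIs of the other lineages.

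Some of the low levels outside fibroblasts sat in few cells that also carried stromal transcripts. Without cells that had 30 or more UMIs of Dcn, Lum, Dpt and Col1a1 in the other gates, a step added after the values had been seen, the log2 ratio of Wif1 was 7.13 in place of 2.76, that of Dkk3 4.89 in place of 3.26 and that of Rspo3 2.56 in place of 1.39. Other alternatives gave smaller ratios: Wif1 fell to 1.30 with gate minimums raised by 1 UMI and Dkk3 to 2.60 with called doublets kept, and both were called under all 10 alternatives. So were Sfrp1, Sfrp2 and Frzb, whose log2 ratios ran from 4.39 to 5.61, 3.30 to 5.70 and 4.27 to 6.40. The call of Rspo3 was lost with gate minimums raised and after thinning of every cell to 2500 UMIs, at 0.89 in both, and thinning also ended the call of Dkk2.

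**Figure D1:**
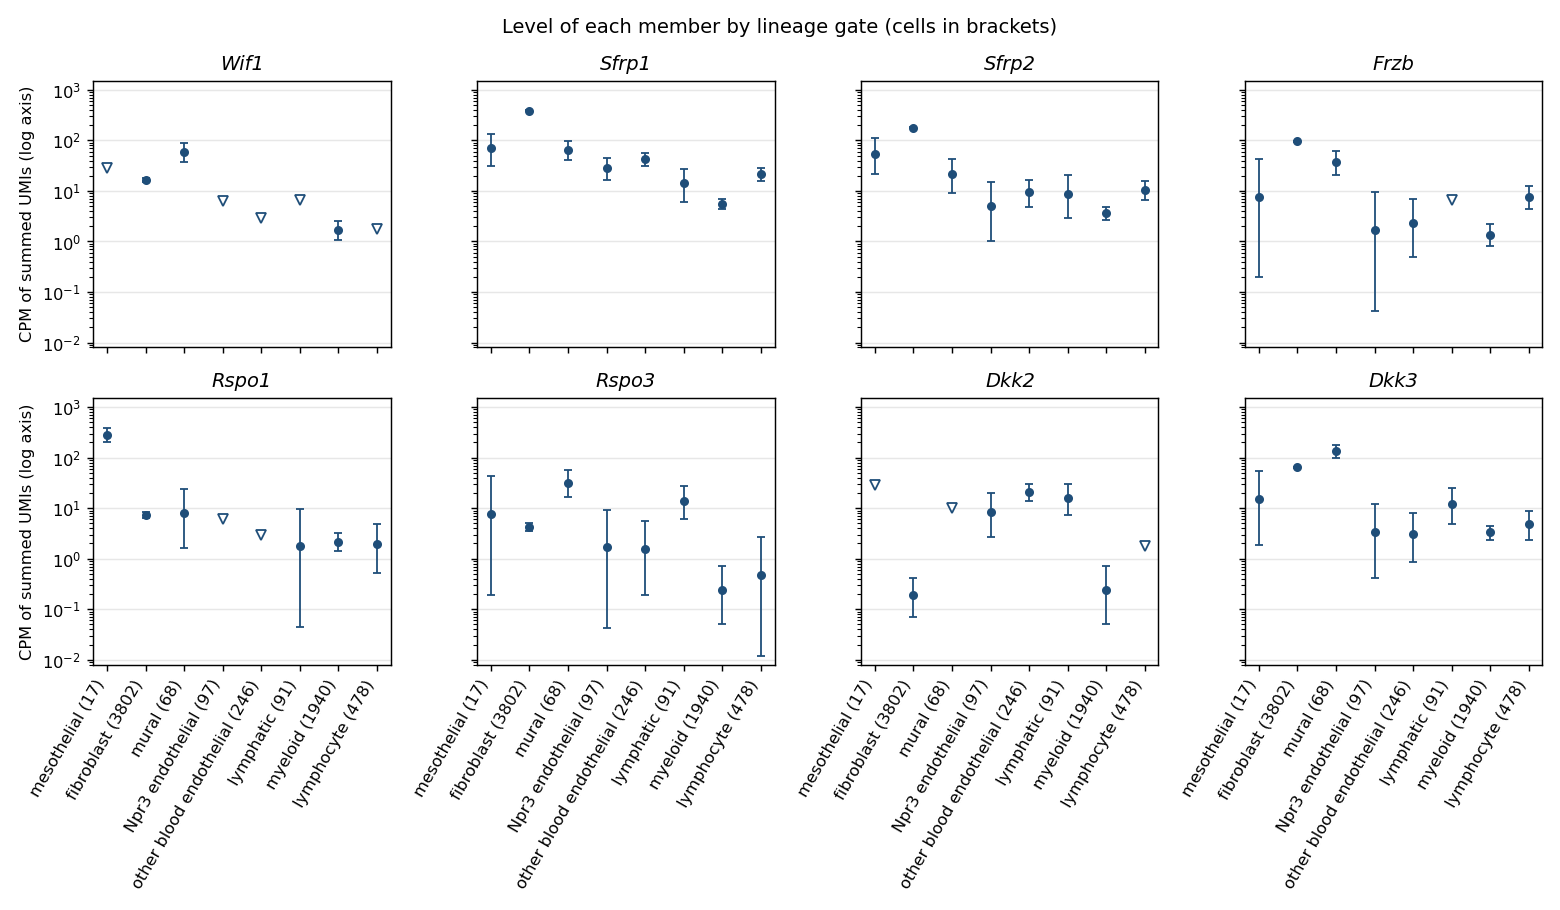
Level of each gene in 8 lineage gates, as CPM of the summed UMIs on a log axis, with the number of cells in brackets. Points are levels with 95% Poisson intervals, and open triangles mark the upper limit where no UMI was found. Sfrp1, Sfrp2 and Frzb are highest in fibroblasts, Rspo1 in the mesothelial gate and Dkk2 in the endothelial gates.

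The order of the gates differed from gene to gene. For Sfrp1 fibroblasts stood above mesothelial cells (69.3 CPM, 31.7 to 132), mural cells (64.3 CPM) and other blood endothelium (42.4 CPM, 31.8 to 55.3), and the intervals of these 3 overlap. Npr3 endothelium followed with 28.7 CPM, lymphocytes with 21.6, the lymphatic gate with 14.1 and myeloid cells with 5.58 CPM. Of the 54 Sfrp1 UMIs in other blood endothelium 24 came from 1 cell. For Sfrp2 mesothelial cells came second with 53.9 CPM (21.7 to 111), from 7 UMIs of which 5 lay in 1 cell, and mural cells followed with 21.4 CPM (9.25 to 42.2). The remaining gates had 3.64 to 10.6 CPM of Sfrp2. For Frzb mural cells came second with 37.5 CPM (20.5 to 62.9), and the others had at most 7.70 CPM. The lymphatic gate had no Frzb UMI, which allows a level up to 5.28 CPM at 3 counts.

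How the transcripts were spread over fibroblasts set the genes apart. Sfrp1 was found in 77.8% of fibroblasts, with 5 or more UMIs in 24.5% of them, and no cell held more than 39. Frzb was found in 42.6%, but only 1.76% had 5 or more UMIs. Sfrp2 was found in 28.6% of fibroblasts, and 7.81% had 5 or more UMIs. Dkk3 was found in 28.1%, Rspo1 in 5.02% and Rspo3 in 1.92%.

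Apart from Dkk2, with 6 UMIs in fibroblasts, Wif1 was the most concentrated. Its 526 UMIs in fibroblasts came from 47 cells, 1.24% of the gate, and the top 38 cells held 98.3% of them. Over all 9012 cells 11 cells held 50% of the 1053 Wif1 UMIs, while 779 cells were needed for 50% of Sfrp1. After thinning to 2500 UMIs per cell, Wif1 was found in 0.815% of fibroblasts (0.555 to 1.16) and 0% of lymphocytes, which should lack it (up to 0.769). Sfrp1 was found in 51.2% of thinned fibroblasts and 3.14% of thinned lymphocytes, Sfrp2 in 16.4% and 0.837%, Frzb in 18.1% and 0.837%, and Dkk3 in 12.7% and 0.628%.

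**Figure D2:**
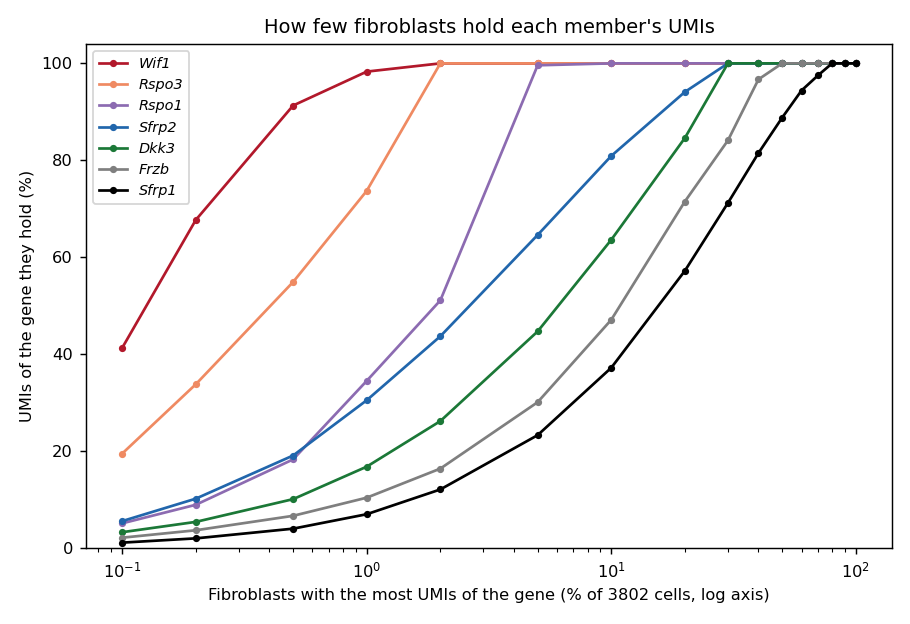
Share of each gene's UMIs (vertical axis) held by the fibroblasts with the most UMIs of that gene (horizontal axis, percent of the 3802 cells, log axis). The top 1% of cells holds 98.3% of Wif1 and 6.99% of Sfrp1, and the other genes drawn lie between. Dkk2 is left out because fibroblasts held only 6 of its UMIs.

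In mesothelial cells, the sheet that covers the heart, Rspo1 stood far above its level elsewhere. It had 37 UMIs in 13 of the 17 cells, a level of 285 CPM (201 to 393), against 7.46 CPM in fibroblasts (6.54 to 8.48), a 38.2-fold difference (26.2 to 54.2). The cell with the most held 5 of the 37 UMIs, and without the highest cell of each side the log2 ratio stayed at 5.26. All other gates had at most 8.04 CPM of Rspo1. After thinning, 41.2% of mesothelial cells had a UMI of it (18.4 to 67.1), against 1.58% of fibroblasts (1.21 to 2.03) and 0.209% of lymphocytes.

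Rspo1 was the 1 member called higher in mesothelial cells than in fibroblasts, where 6.60% of all 15473 genes were called higher, and 4 were called lower, where 3.08% were. The median log2 ratio of the members with a value was -1.88, and that of all genes with a value 0.20. Of the 15473 genes, 5038 lay within the floor of 3 counts and could not be called, yet they count in both shares. Sfrp1 was 5.56-fold lower (2.93 to 12.2), from 9 mesothelial UMIs. Sfrp2 was 3.29-fold lower (1.59 to 8.18), Frzb 12.4-fold lower from 1 UMI (2.23 to 492) and Dkk3 4.15-fold lower from 2 UMIs (1.15 to 34.3). No Wif1 or Dkk2 UMI was found in the mesothelial gate, which allows up to 23.1 CPM, and Rspo3 had 1 UMI there. With every cell thinned to 2500 UMIs the calls of Rspo1 and Sfrp1 were kept and those of Sfrp2, Frzb and Dkk3 were not. Over the alternatives the log2 ratios of these 3 ran from -3.31 to -1.34, -4.15 to -1.91 and -2.92 to -1.62.

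Of the rest of the Wnt pathway, 3 of 50 measured genes were called higher in mesothelial cells, where 6.60% of all genes were, and 1 lower, where 3.08% were, so the count is near that over all genes. The ligand Wnt4 stood at 108 CPM in mesothelial cells against 5.65 CPM in fibroblasts, 19.1-fold higher (10.2 to 32.9), with 5 of its 14 UMIs in 1 cell. The ligand Wnt5a stood at 123 against 17.5 CPM, 7.04-fold higher (4.00 to 11.5), in 10 of the 17 cells. Axin2, a feedback gene switched on by beta-catenin, had 3 UMIs in 2 mesothelial cells and was 8.66-fold higher (1.75 to 26.2). Igfbp4, a secreted protein that can inhibit Wnt receptors, was lower at 994 against 2272 CPM.

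Dkk2 transcripts in gated cells lay mainly in endothelium. The gene had 41 UMIs in 22 of the 434 endothelial cells, a level of 16.8 CPM (12.1 to 22.8), against 0.191 CPM in fibroblasts (0.0699 to 0.415), an 88.4-fold difference (37.3 to 255). Other blood endothelium had 21.2 CPM of Dkk2 (14.0 to 30.8) in 17 of 246 cells. The lymphatic gate had 15.9 CPM (7.25 to 30.1) in 3 of 91 and Npr3 endothelium 8.44 CPM (2.74 to 19.7) in 2 of 97. The intervals of these gates overlap. Mesothelial, mural and lymphocyte gates had no Dkk2 UMI, which allows up to 23.1, 8.04 and 1.44 CPM at 3 counts. Myeloid cells had 0.242 CPM. Cells in no gate held 34.2% of all 76 Dkk2 UMIs. Thinning to 2500 UMIs left too few UMIs for a call of Dkk2, with a log2 ratio of 5.97 in place of 6.47, and a minimum of 50 UMIs also ended the call.

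Between endothelium and fibroblasts, a comparison added after the values had been seen, Dkk2 was the 1 member called higher, where 13.4% of genes were, and 6 were called lower, where 10.8% were. Wif1 had no UMI in endothelium and was at least 13.6-fold lower against a floor of 3 counts over the gate, a log2 value of -3.76 that was -1.75 after thinning. Frzb was 58.4-fold lower (22.8 to 214), Sfrp2 21.6-fold (14.0 to 35.3), Rspo1 18.2-fold from 1 UMI (3.23 to 721), and Sfrp1 11.9-fold, with a log2 ratio of -3.57. Dkk3 had a log2 ratio of -3.58, at 5.34 CPM in endothelium against 64.0 CPM in fibroblasts. Rspo3 was not called, at 4.52 CPM in endothelium and 4.22 CPM in fibroblasts. Its endothelial UMIs lay mostly in the lymphatic gate, which had 14.1 CPM (6.08 to 27.8) in 5 of 91 cells. Npr3 endothelium had 1.69 CPM and other blood endothelium 1.57 CPM.

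Within blood endothelium no member was called between Npr3 endothelium and the rest, where 8.14% of 8600 genes were called higher and 9.07% lower. Only Sfrp1 and Dkk2 reached 20 UMIs. Dkk2 was 2.51-fold lower in Npr3 endothelium, with an interval that included 1 (0.953 to 8.35). It was called lower without the highest cell of each side, at a log2 ratio of -2.47, and with gate minimums raised by 1 UMI, at -1.88. Of the rest of the pathway, 6 of 28 measured genes were called higher in Npr3 endothelium and 1 lower. Sost, which encodes the LRP-binding Wnt inhibitor sclerostin, stood at 209 CPM (174 to 249.5) in 38 of 97 cells, against 3.92 CPM in 3 of 246 other blood endothelial cells, 53.3-fold higher (22.2 to 167). Wnt11 was 50.2-fold higher (16.5 to 249) at 118 against 2.35 CPM, and Wnt4 7.07-fold (2.94 to 19.5) at 38.8 against 5.49 CPM, with 11 of its 23 UMIs in 1 cell. Ccnd1 was 2.59-fold lower (2.06 to 3.28). The lymphatic gate also had Sost, at 75.7 CPM in 10 of 91 cells, and it carried 6 of 7 endocardial markers at 50 CPM or more.

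Myeloid cells carried little of any member. Levels ran from 0.242 CPM for Dkk2 and Rspo3 to 5.58 CPM for Sfrp1 (4.34 to 7.06), which was found in 2.63% of cells. Of the 21 Wif1 UMIs in 1940 myeloid cells, 20 lay in 1 cell. Against lymphocytes 3 members were called lower, where 19.4% of 13144 genes were, and none higher, where 14.1% were: Sfrp1 at 5.58 against 21.6 CPM, Sfrp2 at 3.64 against 10.6 CPM and Frzb at 1.37 against 7.67 CPM. The median log2 ratio of the members was -1.04 and that of all genes -0.25.

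Those 3 calls rested on few cells. Only 10 of the 478 lymphocytes had 30 or more stromal UMIs, and they held 35 of the 45 Sfrp1 UMIs, 16 of the 22 Sfrp2 UMIs and 13 of the 16 Frzb UMIs. Over the cells with fewer stromal UMIs, 1923 myeloid cells and 468 lymphocytes, Sfrp1 stood at 3.63 and 5.06 CPM, Sfrp2 at 2.31 and 3.04 CPM and Frzb at 0.989 and 1.52 CPM, and none of the 8 was called. Thinning also ended all 3 calls, and leaving out the highest cell of each side ended those of Sfrp2 and Frzb. Sfrp1 was found in 1.13% of thinned myeloid cells (0.712 to 1.71) and 3.14% of thinned lymphocytes (1.77 to 5.12), and the other members in at most 0.837% of either. For Sfrp1, Sfrp2, Frzb and Dkk3 the myeloid share was at or below that of lymphocytes, and whether these UMIs are background or expression was not tested. Rspo1 was found in 0.515% of thinned myeloid cells (0.247 to 0.946) and 0.209% of thinned lymphocytes (0.00530 to 1.16), with intervals that overlap.

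**Figure D3:**
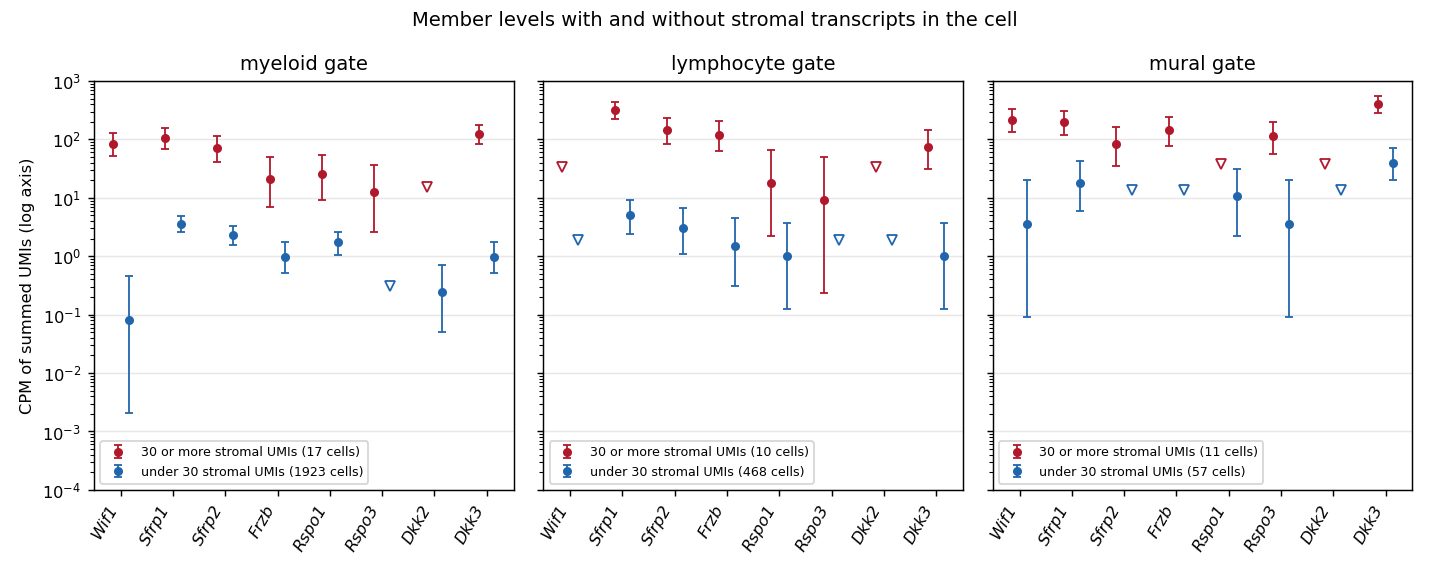
Level of each gene (CPM, log axis, 95% Poisson intervals) in cells of the myeloid, lymphocyte and mural gates with 30 or more UMIs of Dcn, Lum, Dpt and Col1a1 (red) and with fewer (blue). Open triangles mark the upper limit where no UMI was found. In the myeloid gate Sfrp1 stood at 106 CPM in the 17 cells rich in stromal UMIs and at 3.63 CPM in the other 1923.

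The mural gate looked rich in 3 members before it was split in the same way. Against fibroblasts, a comparison added after the values had been seen, Rspo3 was 7.61-fold higher (3.84 to 13.7), Wif1 3.53-fold (2.19 to 5.40) and Dkk3 2.09-fold (1.55 to 2.77), where 9.15% of 15525 genes were called higher. Sfrp1, Sfrp2 and Frzb were called lower, where 4.13% were. Of the 68 mural cells 11 had 30 or more stromal UMIs, and they held 21 of 22 Wif1 UMIs, 11 of 12 Rspo3 UMIs and 39 of 50 Dkk3 UMIs. The other 57 mural cells had 3.62 CPM of Wif1 and of Rspo3 from 1 UMI each and 39.9 CPM of Dkk3 (19.9 to 71.3). With those 11 cells left out the log2 ratios were -2.20 for Wif1, -0.22 for Rspo3 and -0.68 for Dkk3. Of 10 alternatives 5 ended the call of Wif1, 3 that of Rspo3 and 6 that of Dkk3, and keeping called doublets ended that of Frzb. The 5 fibroblast markers outside the gate rule summed to 19865 CPM in the 11 cells and 2004 CPM in the other 57, and their part in the result was not tested.

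Inside the fibroblast gate 8 subsets were gated, each by at least 4 UMIs over a panel of 2 or 3 genes with at least 2 of them present, and named by those genes. They held 17 to 1481 cells, 666 fibroblasts passed several of these gates and 1431 passed none. Of 64 pairs of a member and a subset, 9 were called higher and 13 lower than in the fibroblasts outside that subset. Over all genes, 1.07% to 5.70% were called higher and 1.32% to 2.93% lower, depending on the subset. The 64 pairs include those of Dkk2, which was too low for a value in any subset. Sfrp1 and Frzb were each called in 1 subset, and Sfrp1 levels ran from 159 to 535 CPM over the 8 subsets.

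The Comp-Fmod subset, marked by the cartilage and tendon matrix genes Comp and Fmod, had the most called members. It held 36 cells, 21 of which also passed the Cthrc1-Postn gate. In it 5 members were called higher, where 2.94% of 15428 genes were, and Sfrp1 lower, where 2.63% were. Dkk3 stood at 347 CPM (290.3 to 411) in 30 of the 36 cells, against 60.5 CPM in other fibroblasts, 5.73-fold higher (4.77 to 6.84). Sfrp2 stood at 894 against 168 CPM, 5.31-fold higher (4.75 to 5.92), in 23 cells. Frzb stood at 227 against 94.3 CPM, 2.41-fold higher (1.92 to 2.98), in 26 cells.

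Wif1 in Comp-Fmod cells reached 269 CPM (219 to 326), against 13.6 CPM in other fibroblasts, 19.7-fold higher (15.8 to 24.5), yet only 6 of the 36 cells had it and 1 held 46.6% of its UMIs. Without the highest cell of each side its log2 ratio was 3.65 in place of 4.30. Rspo3 was 5.19-fold higher (2.19 to 10.5) with 6 of its 8 UMIs in 1 cell, and without the highest cells it was not called, at a log2 ratio of 0.49. Frzb also lost its call at 0.97. After thinning and with gate minimums raised, Rspo3 gave no value and so lost its call too. Sfrp1 was 2.44-fold lower (1.90 to 3.19), at 159 against 388 CPM, and lost its call after thinning, at a log2 ratio of -0.86, and under the broad stromal gate, which does not ask for Pdgfra, at -0.74. Rspo1 had no UMI in the subset, which allows up to 7.82 CPM at 3 counts.

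The call of Sfrp2 ended after thinning, at a log2 ratio of 0.59, and without cells of several subset gates, at 0.21. The second of these steps gave 3.44 for Dkk3 and 5.72 for Wif1. The median log2 ratio of the members with a value was 2.40, and that of all genes with a value was 0.02.

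Sfrp2 was also called higher in 2 other subsets. In Cthrc1-Postn cells, which carry genes of activated fibroblasts, it stood at 561 CPM (531 to 592), against 146 CPM in other fibroblasts, 3.85-fold higher (3.62 to 4.09) and called under all 13 alternatives. It was found in 98 of the 204 cells. No other member was called there, where 2.74% of genes were called higher and 1.81% lower, although 7 of the 13 alternatives added a call, without the highest cells those of Wif1 and Rspo1. In Igfbp3-Mmp3-Osr1 cells Sfrp2 stood at 475 CPM (440.0 to 511), against 163 CPM, 2.92-fold higher (2.69 to 3.16), in 97 of 177 cells, and after thinning it lost its call at a log2 ratio of 0.98.

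Wif1 and Rspo1 were also called higher in Igfbp3-Mmp3-Osr1 cells, where 2.51% of genes were, and no member lower, where 1.32% were. Wif1 was 2.84-fold higher (2.15 to 3.69), but 75.0% of its UMIs lay in 1 cell, and without the highest cell of each side its log2 ratio was -0.29. Its call was lost under 3 of the 12 alternatives that gave a value, the lowest log2 ratio being -2.86 with gate minimums raised. Thinning gave no value for Wif1 and so ended its call too. Rspo1 was 2.01-fold higher (1.22 to 3.15), at 14.3 against 7.13 CPM, and it was not called under 5 of 13 alternatives, among them that without the highest cells, at a log2 ratio of 0.89. Of 50 other pathway genes 4 were called higher and 5 lower. Sfrp4, a relative of the Frizzled-related members, was 5.27-fold higher (3.32 to 8.11) with 12 of its 27 UMIs in 1 cell. The feedback gene Axin2 was 3.09-fold higher (1.48 to 5.86), at 7.51 against 2.43 CPM, while lymphocytes had 14.4 CPM of it (9.71 to 20.5). Nkd1, another feedback inhibitor, was 2.96-fold higher (1.87 to 4.52), at 17.1 against 5.76 CPM. Of 8 measured targets and feedback genes, 2 were called higher in these fibroblasts and 2 lower.

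**Figure D4:**
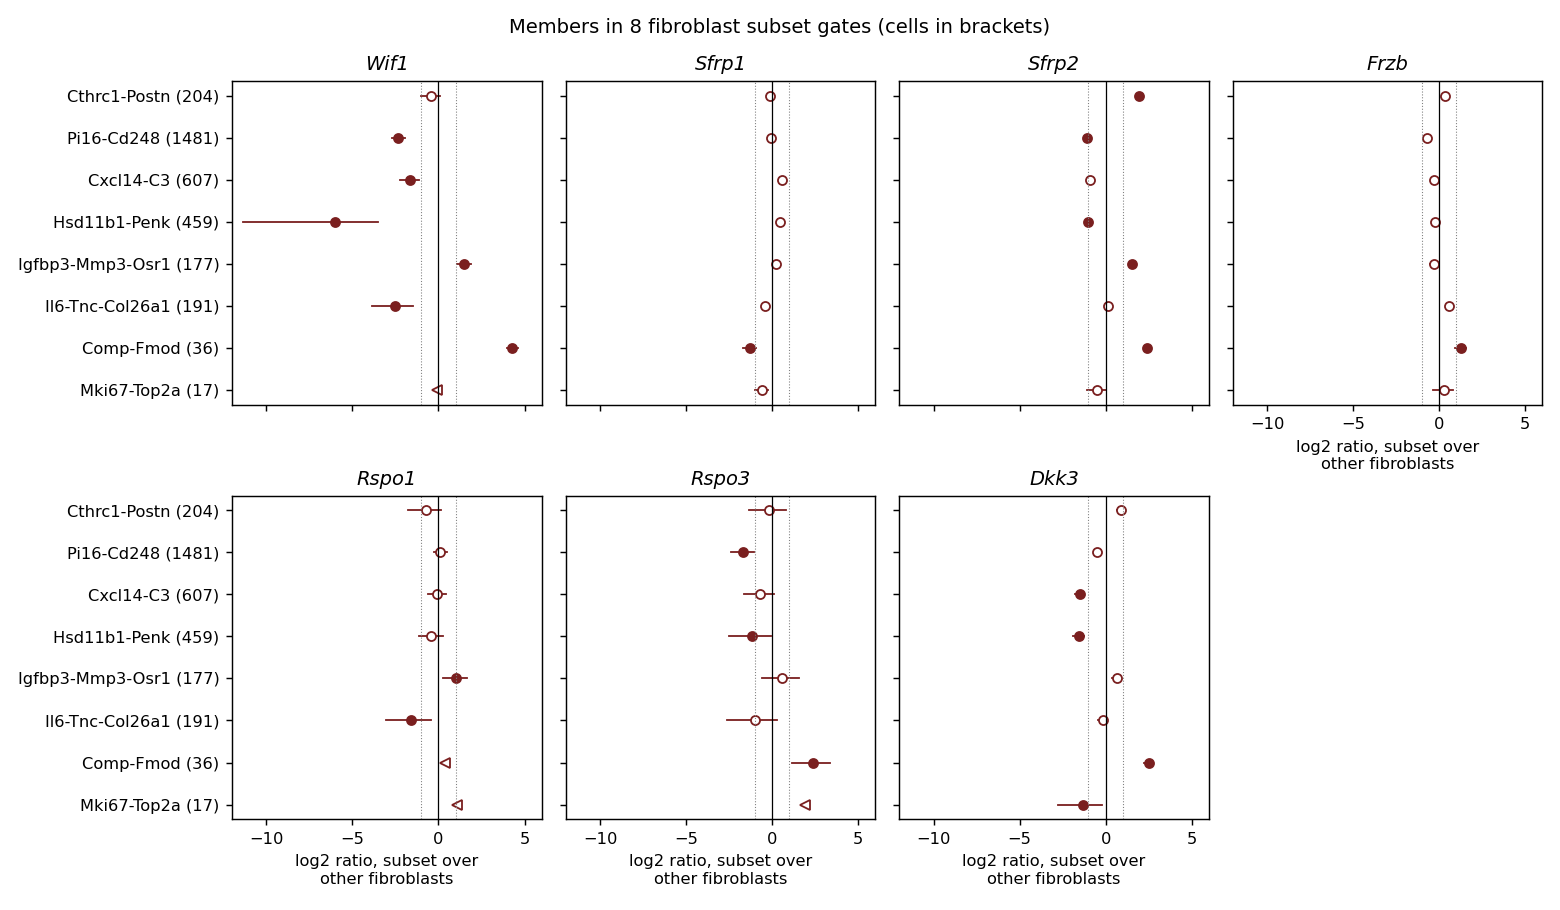
Log2 ratio of each gene's CPM in 8 fibroblast subset gates over the fibroblasts outside that gate, with 95% intervals and the number of cells in brackets. Filled points were called, open points were not, dotted lines mark a 2-fold difference, and open triangles mark the upper limit where the subset had no UMI. Comp-Fmod cells stand to the right for Wif1, Sfrp2, Frzb, Rspo3 and Dkk3.

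The remaining subsets had members called lower and none higher. Pi16-Cd248 cells, the largest subset with 1481 cells, had Wif1 5.02-fold lower (3.92 to 6.51), Rspo3 3.23-fold (2.10 to 5.12) and Sfrp2 2.09-fold (1.97 to 2.21), where 2.93% of genes were called lower and 1.72% higher. Of their 74 Wif1 UMIs 60 lay in 1 cell, and its log2 ratio ran from -5.60 to -1.54 over the alternatives. Rspo3 lost its call after thinning and Sfrp2 under the broad stromal gate, at -0.98. The ligand Wnt10b was 7.80-fold higher in these cells (4.66 to 13.9), at 7.68 against 0.983 CPM. Of 50 other pathway genes measured there, 1 was called higher and 2 lower. Cxcl14-C3 cells had Wif1 3.13-fold lower (2.17 to 4.69), with 29 of 30 UMIs in 1 cell and log2 ratios from -6.37 to 0.24 over the alternatives, and Dkk3 2.84-fold lower (2.37 to 3.43), where 2.15% were called lower and 1.07% higher. These cells also had the highest Sfrp1 level of the subsets, 535 CPM against 357 CPM in other fibroblasts, which is 1.50-fold (1.43 to 1.56) and under the threshold.

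Hsd11b1-Penk cells had 4 members called lower, where 2.35% of genes were and 1.59% were called higher. Wif1 had 1 UMI in 459 cells and was 65.2-fold lower (11.7 to 2581). It was called under all 12 alternatives that gave a value, but the size was unsteady, with log2 ratios from -6.80 to -1.62, the smallest with the subset gate at 2 UMIs. Dkk3 was 2.93-fold lower (2.35 to 3.70) at 23.6 against 69.0 CPM, Rspo3 2.24-fold (1.05 to 5.68) and Sfrp2 2.00-fold (1.79 to 2.25). The call of Sfrp2 was at the threshold and was lost under 6 of 13 alternatives. That of Rspo3 was lost under 5 of 13, and its log2 ratio of -1.16 turned to 0.53 after thinning. In Il6-Tnc-Col26a1 cells Wif1 was 5.79-fold lower (2.79 to 14.5) and Rspo1 2.98-fold (1.35 to 8.21), where 2.39% were called lower and 1.59% higher. The call of Wif1 was lost with gate minimums raised, and its log2 ratio ran from -5.15 to -0.76. After thinning neither Wif1 nor Rspo1 gave a value there, so both calls were lost. The 17 cycling Mki67-Top2a cells had Dkk3 2.53-fold lower from 6 UMIs (1.16 to 6.91), where 2.57% were called lower and 5.70% higher. This call was lost under 4 of the 12 alternatives that gave a value, with log2 ratios from -2.81 to -0.61, and thinning gave no value.

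The cells rich in Wif1 were then described directly. They were chosen by Wif1 after its values had been seen, so its own level in them is no result. Across all gates 47 cells had 5 or more Wif1 UMIs and held 91.2% of the gene's UMIs. Of these, 20 lay in the fibroblast gate, 25 in no gate, 1 in the myeloid gate and 1 in the mural gate. All 47 had 30 or more stromal UMIs, from 55 upward with a median of 241. No Pdgfra UMI was found in 55.3% of them, against 19.6% of 4723 cells in a broad stromal gate that does not ask for Pdgfra. Their median depth was 6539 UMIs, against 7575 in the broad gate.

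The other members are given beside the 4681 other cells of the broad stromal gate, as a description without a test. Of the 47 cells, 42 lay in that gate. The 5 others had a UMI of Ptprc, Cdh5, Kdr, Msln or Upk3b, which bars a cell from the gate. Dkk3 was found in 46 of the 47 and stood at 1034 CPM, against 68.8 CPM in the other stromal cells. Rspo3 was found in 32 of them, 68.1%, and stood at 261 CPM, against 1.92% of cells and 3.63 CPM. Frzb stood at 261 against 97.9 CPM and Sfrp2 at 365 against 187 CPM, while Sfrp1 stood at 195 against 371 CPM. Rspo1 had no UMI in them, against 7.10 CPM.

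A list of 13 genes of tendon, valve or cartilage gave a mixed picture in these cells: 5 were found in 6 or more of the 47, 6 in 1 to 4 and 2, Mkx and Col2a1, in none. Prg4, which encodes the joint lubricant lubricin, was found in 35 of the 47 cells and stood at 2160 CPM, against 59.5 CPM in the other stromal cells. Fmod, a collagen-binding proteoglycan, was found in 27 and stood at 729.7 against 17.1 CPM. Comp, like Fmod not on the list, was found in 19. From the list, the tendon factor Scx was found in 13, the cartilage link protein Hapln1 in 12 and Chad, which encodes chondroadherin, in 6. Sox9 was found in 36 but also in 64.3% of the other stromal cells. Thbs4 was found in 2 of the 47, at 80.4 CPM against 88.3 CPM in the other stromal cells, and Tnmd, Kera and Acan in 1 each. The pericyte gene Rgs5 was found in 27, against 2.65% of other stromal cells. The other genes counted by the mural gate, Kcnj8, Abcc9, Myh11 and Cnn1, are not given here, and 1 of the 47 cells passed that gate. Only 3 of the 47 passed the Comp-Fmod gate.

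**Figure D5:**
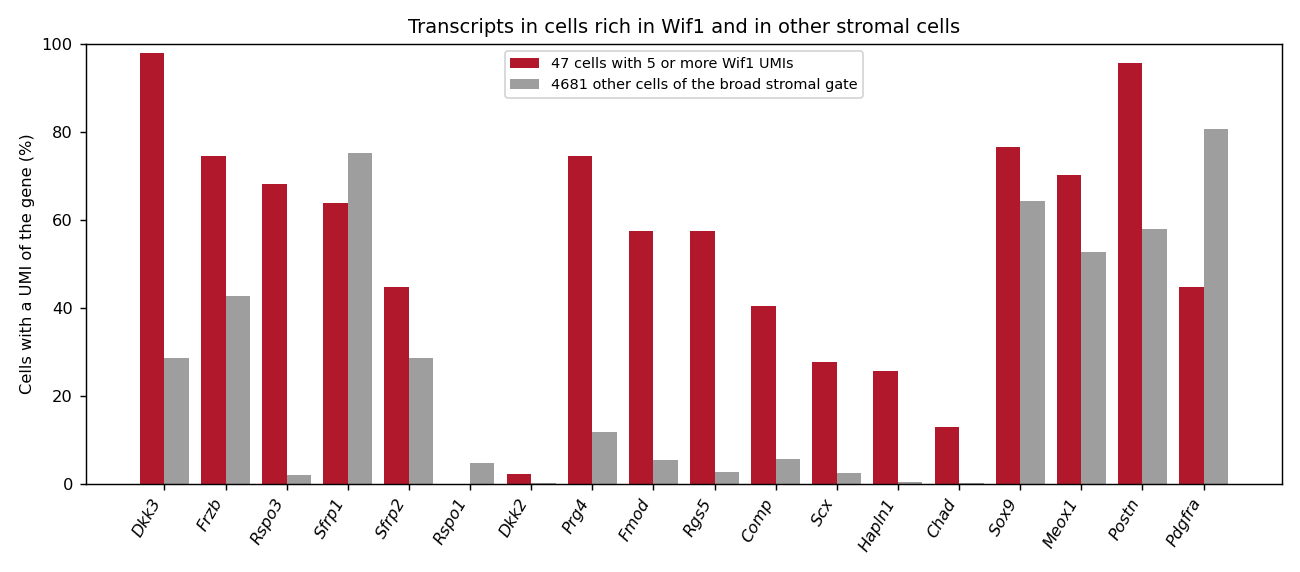
Percent of cells with a UMI of each gene among the 47 cells with 5 or more Wif1 UMIs (red) and the 4681 other cells of the broad stromal gate (grey). Dkk3 is found in 97.9% and Rspo3 in 68.1% of the red group, and Pdgfra is found in 44.7% of it against 80.7% of the grey group.

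Genes most like each member were sought by Pearson's r of log-scaled UMIs over the 3802 fibroblasts. The search took in the 6951 genes with at least 500 UMIs in those cells. The points share 1 library, and depth and sparse counts bear on every r, so the values are a description. Rspo3 was most like Wif1, with r of 0.53, and Wif1 was among the 3 genes most like Dkk3, with 0.27. Among the genes searched, Wif1 itself was most like Prg4 (0.35), followed by Atp1b1 (0.31) and Ecrg4 (0.30). Rspo3, with 133 UMIs in fibroblasts, was below the minimum and so not among them. Sfrp2 was most like Ccn5 (0.44), then the elastic fibre genes Fbln5 and Eln (0.29 each). Sfrp1 was most like the complement genes Serping1 (0.36) and C3 (0.35), then Fbln1 (0.33).

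Frzb was most like Igfbp7 (0.26), Meox1 (0.24) and Bgn (0.23), and Dkk3 was most like Cpe (0.33) and Pdlim3 (0.28). Rspo3 was also like Scara3 and Atp1b1 (0.24 each). Rspo1 reached 0.19 with Fbln1, Vegfd and Inmt. Between members, with every cell thinned to 2500 UMIs, Sfrp1 had r of 0.08 with Sfrp2, -0.02 with Frzb and -0.07 with Dkk3. Dkk2 had too few UMIs for such a value.

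The rest of the Wnt pathway was counted from a list of 81 other genes, of which 56 could be measured between fibroblasts and other lineages. There 33 were called higher in fibroblasts, where 21.8% of all genes were, and 7 lower, where 20.2% were, with a median log2 ratio of 1.21 against 0.08 over all genes. Receptors were mostly higher, 12 of 16 measured, and their leaders were Ror2, 20.2-fold (9.67 to 50.8), and Fzd2, 18.3-fold (14.7 to 23.2). Of 5 measured secreted modulators outside the 8 members, 4 were higher and Sost was 40.5-fold lower (20.1 to 95.2). The ligand Wnt10b was 17.4-fold higher (6.63 to 64.9), and Wnt9b was 76.0-fold lower from 1 UMI (12.9 to 3073). Among targets and feedback genes 6 of 9 were higher and none lower.

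Close relatives of the members were rare. Sfrp4 had 172 UMIs in all, at 4.19 CPM in fibroblasts against 0.287 CPM in other lineages, and 26 of its 132 fibroblast UMIs lay in 1 cell. Rspo2 had 12 UMIs, of which 4 lay in 2 mesothelial cells. Sfrp5 had 2 and Dkk1, Dkk4 and Rspo4 none. In the Comp-Fmod subset 5 of 50 pathway genes were called higher, where 2.94% of all genes were, and 2 lower, where 2.63% were. The secreted Wnt target Ccn4 was 26.5-fold higher there (18.5 to 37.1), at 119.9 against 4.53 CPM. It was 16.7-fold higher in Cthrc1-Postn cells (12.4 to 22.6), at 45.4 against 2.71 CPM. Axin2 was 5.13-fold higher in Comp-Fmod cells (1.62 to 12.5) from 5 UMIs in 4 cells. Of 8 measured targets and feedback genes, 2 were called higher in Comp-Fmod cells and 1 lower. Tcf7, a nuclear partner of beta-catenin used by T cells, was 224-fold lower in myeloid cells than in lymphocytes (127 to 437), and Lef1 was 107-fold lower (72.9 to 162).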

How the data were processed

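The gene expression library of the pool was used; its hashtag library was not analysed here. The deposited matrix holds whole-number UMI counts without normalization, per the file's values. Per the submitters' processing notes the tools were STARsolo and Scanpy on mm10; their versions are not given in the sources used here, and the labels name a 10x 3′ version 3.1 kit. The rule that called barcodes as cells is not given in the sources used here.

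From these counts, Scrublet (scanpy 1.11.5, Python 3.11.15) called 357 doublets (3.81% of barcodes), which were removed. Cells were gated on raw UMIs of fixed markers, UMIs were summed per gate and expressed as CPM with exact Poisson intervals, and ratios were given exact binomial intervals at 95%. A side with 0 UMIs was set to a floor of 3 counts over the gate, and no fold was given where both sides lay within that floor. Such genes could not be called but stayed in the shares over all genes, and they were left out of the medians. They numbered 5038 for mesothelial cells, 3939 for Mki67-Top2a, 2877 for Comp-Fmod and 2499 for mural cells. Shares of cells given as thinned used cells thinned to 2500 UMIs, with Clopper-Pearson intervals. Other shares of cells used all UMIs and have no interval. Intervals and floors cover counting error only. With 1 pooled library no significance test was run. The ratio step was tested on simulated Poisson sums with known folds, which lack the clumping of UMIs in single cells seen here. Calls were made over all genes with at least 20 UMIs.

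The members, gates and gene lists were chosen with earlier results of these data known. Besides the 8 members, called pathway genes are named from the 3 of largest ratio per direction and comparison. Not all of these are named, and in the fibroblast subsets only genes called higher are. The members' close relatives and the 3 genes most like each member are also named. Genes named in cells rich in Wif1, Axin2 beyond the rule, and the comparisons of endothelium and of mural cells with fibroblasts were chosen after the values had been seen. In all 10 planned and 3 added alternatives were run.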

Additional observations from a re-analysis of the deposited data

How the results depend on the processing

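No paired analysis was possible because the pool is 1 library with no map from cells to mice. The alternatives were run for the 8 members, not for other genes. Counts of called members per lineage comparison, and of called pairs over all subsets, stayed within 1.5 times under the alternatives run, with these exceptions. With cells thinned to 2500 UMIs, which leaves fewer UMIs to call on, 2 members in place of 5 were called in mesothelial cells against fibroblasts, 0 in place of 3 in myeloid cells against lymphocytes, 3 in place of 6 in mural cells against fibroblasts, and 12 in place of 22 pairs of a member and a fibroblast subset. Without cells of 30 or more stromal UMIs in the other gates, myeloid cells against lymphocytes gave 0 and mural cells against fibroblasts 3. Without the highest cell of each side, myeloid cells against lymphocytes gave 1, and Npr3 endothelium against other blood endothelium gave 1 in place of 0, as it did with lineage minimums raised by 1 UMI. Within single subsets the counts moved further. Thinning gave 1 in place of 4 for Hsd11b1-Penk, 0 in place of 3 for Igfbp3-Mmp3-Osr1, 3 in place of 6 for Comp-Fmod, 1 in place of 2 for Il6-Tnc-Col26a1, 2 in place of 1 for Cthrc1-Postn and 0 in place of 1 for Mki67-Top2a. Raised minimums gave 1 in place of 2 for Cxcl14-C3 and for Il6-Tnc-Col26a1, 2 in place of 1 for Cthrc1-Postn and 0 for Mki67-Top2a. A subset gate at 2 or 8 UMIs gave 2 for Hsd11b1-Penk, and that at 8 UMIs gave 2 for Cthrc1-Postn and for Mki67-Top2a, as did leaving out cells of several subset gates. Without the highest cells the counts were 1 for Igfbp3-Mmp3-Osr1 and 3 for Cthrc1-Postn and for Mki67-Top2a. The broad stromal gate gave 4 for Cxcl14-C3 and 2 for Cthrc1-Postn, which also had 2 with no minimum of UMIs.

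Of 559 member values under alternatives, 492 kept their call and 15 turned direction. Some of these could not change. Having no minimum of UMIs cannot end a call. Leaving stromal-rich cells out of the other gates repeats the main values for the subsets and for mesothelial cells against fibroblasts. The broad stromal gate does so for myeloid cells against lymphocytes. Counts of alternatives given for single genes include such repeats. Of 50 called values, 23 kept their call under every alternative that gave them a value. Among the 23 are Wif1 in Hsd11b1-Penk cells and Rspo1 in Il6-Tnc-Col26a1 cells, whose calls were lost after thinning because it gave no value. The turned log2 ratios were these. In mural cells over fibroblasts they were -0.82 (thinned), -2.78 (broad stromal gate) and -2.20 (no stromal-rich cells) for Wif1, -0.71 (broad gate) and -0.22 (no stromal-rich cells) for Rspo3, and -0.83, -0.94 and -0.68 in the order given for Wif1 for Dkk3. Wif1 turned in Igfbp3-Mmp3-Osr1 cells, to -2.86 with raised minimums, -0.32 without cells of several subset gates and -0.29 without the highest cells, and in Cxcl14-C3 cells to 0.24 with raised minimums. Rspo3 in Hsd11b1-Penk cells turned to 0.53 (thinned) and 0.19 (subset gate at 8 UMIs). Sfrp2 in myeloid cells over lymphocytes turned to 0.50 with called doublets kept. The cause of these turns was not tested. Depth limits Dkk2, Rspo1 and Rspo3 most, with 76, 409 and 255 UMIs in all, and the mesothelial gate, whose floor is 23.1 CPM.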

Other observations

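Within the myeloid gate, Rspo1 was not spread evenly over subsets gated by their own genes. In 128 cells with the monocyte genes Ly6c2 and Chil3 it had 8 UMIs in 7 cells, 10.1 CPM, against 1.39 CPM (0.762 to 2.34) in 1524 cells with H2-Aa and Cd74, genes of antigen presentation, where 5 of 14 UMIs lay in 1 cell. After thinning, 3.12% of the Ly6c2-Chil3 cells had a Rspo1 UMI (0.858 to 7.81), against 0.197% of the H2-Aa-Cd74 cells (0.0406 to 0.574). The same 128 cells had no Sfrp1, Wif1, Rspo3, Dkk2 or Dkk3 UMI. These subsets were singled out after their values had been seen, and their gates may share cells. Subsets gated by Folr2, Timd4 and Lyve1 (326 cells) and by Arg1 and Spp1 (35 cells) are not given here.

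Cells in no lineage gate held 46.0% of all Wif1 UMIs, 34.6% of Dkk3 and 36.9% of Rspo3, against 20.3% of Sfrp1. Of these 2263 cells, 1288 had 30 or more stromal UMIs, and 912 of the 1288 lacked only a Pdgfra UMI. The broad stromal gate, which takes such cells in, had 24.9 CPM of Wif1 (23.3 to 26.5), against 16.7 CPM in the fibroblast gate.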
